A study of Mus musculus with 4 samples.

Results

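A set of 10 genes that make, store and sense transforming growth factor beta (TGF-beta) were examined for 5-hydroxymethylcytosine (5hmC), the oxidised form of 5-methylcytosine made by TET enzymes. They were the latent TGF-beta binding proteins Ltbp1, Ltbp2 and Ltbp3, the microfibril gene Fbn1, the ligands Tgfb1, Tgfb2 and Tgfb3, and the receptors Tgfbr1, Tgfbr2 and Tgfbr3. They were taken by name for their roles, with earlier results of these data known, so they are not an unselected set. A peak counted as theirs when the authors' list gave it that gene symbol. All 10 were found among 21900 protein-coding genes of the RefSeq annotation, and 83 of 56695 peaks of the chondrocyte list and 1 of 1050 peaks of the chondroprogenitor list carried their symbols. The cells were ATDC5, a mouse line derived from a teratocarcinoma and grown as chondroprogenitors that form chondrocytes in medium with insulin, transferrin and selenite. Both stages came from this 1 line, with no genetic modification in the labels, and shared a basal medium with serum and ascorbic acid. DNA carrying 5hmC was captured with a chemical kit from 2 chondrocyte libraries, labelled day 19 and day 20, and from 2 chondroprogenitor libraries at day 0. Per the file headers the samples of a stage were merged into 1 peak list, without saying if the day 19 library was among them, so no spread between replicates could be measured and no difference below carries a test. Read depth is unknown, and peak lists hold no expression by which the cell stage could be checked.

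TGF-beta is secreted in a latent form, held by its propeptide and tethered by latent TGF-beta binding proteins to fibrillin microfibrils of the matrix. Once released, the ligand binds the type II receptor, which recruits and phosphorylates the type I receptor, and Smad proteins carry the signal to the nucleus. In cartilage this pathway is known for promoting the condensation and early differentiation of chondroprogenitors and for restraining chondrocyte hypertrophy.

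At day 20, 8 of the 10 genes carried at least 1 peak and 6 carried 6 or more, while at day 0 only Ltbp1 carried one. Counts by gene at day 20 were 31 for Ltbp1, 14 for Fbn1, 13 for Tgfbr3, 9 for Tgfb2, 8 for Tgfbr2 and 6 for Ltbp2. The cut of 6 equals the count of Ltbp2, the lowest of these 6 genes, so it fits these same counts and serves for description only. Ltbp3 and Tgfbr1 had 1 each, and Tgfb1 and Tgfb3 had none. Over all protein-coding genes, 43.9% had a day 20 peak (Wilson 95% interval 43.3 to 44.6%), 6.48% had 6 or more, and 1.81% had a day 0 peak (1.64 to 2.00%). The median was 7 day 20 peaks per gene over the 10 genes and 0 over all protein-coding genes. Gene length bears on these counts: the 10 genes had a median length of 87.3 kb, against 17.1 kb over all protein-coding genes, and 7 of the 10 fell in the 2 longest length deciles of protein-coding genes. In those deciles 74.8% and 79.8% of genes had a day 20 peak, and all 7 of these members had one. The other 3, Ltbp3, Tgfb1 and Tgfb3, fell in a decile where 44.1% of genes had one, and 1 of the 3 did. Per unit of length, the 10 genes together held 7.13 day 20 peaks per 100 kb, against 3.08 per 100 kb over all protein-coding genes. The chondrocyte list was also far longer than the chondroprogenitor list and its peaks were wider, with medians of 591 bp at day 20 and 134 bp at day 0, so a difference in peak number between the lists is not a measured difference in 5hmC. The baseline of the 10-fold enrichment that the file headers name is not stated in the headers or labels.

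How a peak is given to a gene decides whether Ltbp3, Tgfbr1, Tgfb1 and Tgfb3 have a day 20 peak. It also changed the counts of Ltbp1, Fbn1, Tgfb2, Tgfbr2 and Tgfbr3, from 9 to 7 or 10 at Tgfb2, but not that of Ltbp2. By overlap with the gene body, 6 of the 10 genes had a day 20 peak, against 40.5% of protein-coding genes, and 1 had a day 0 peak, against 1.76%. With 5 kb added on both sides all 10 had a day 20 peak, against 50.8%.

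**Figure D1:**
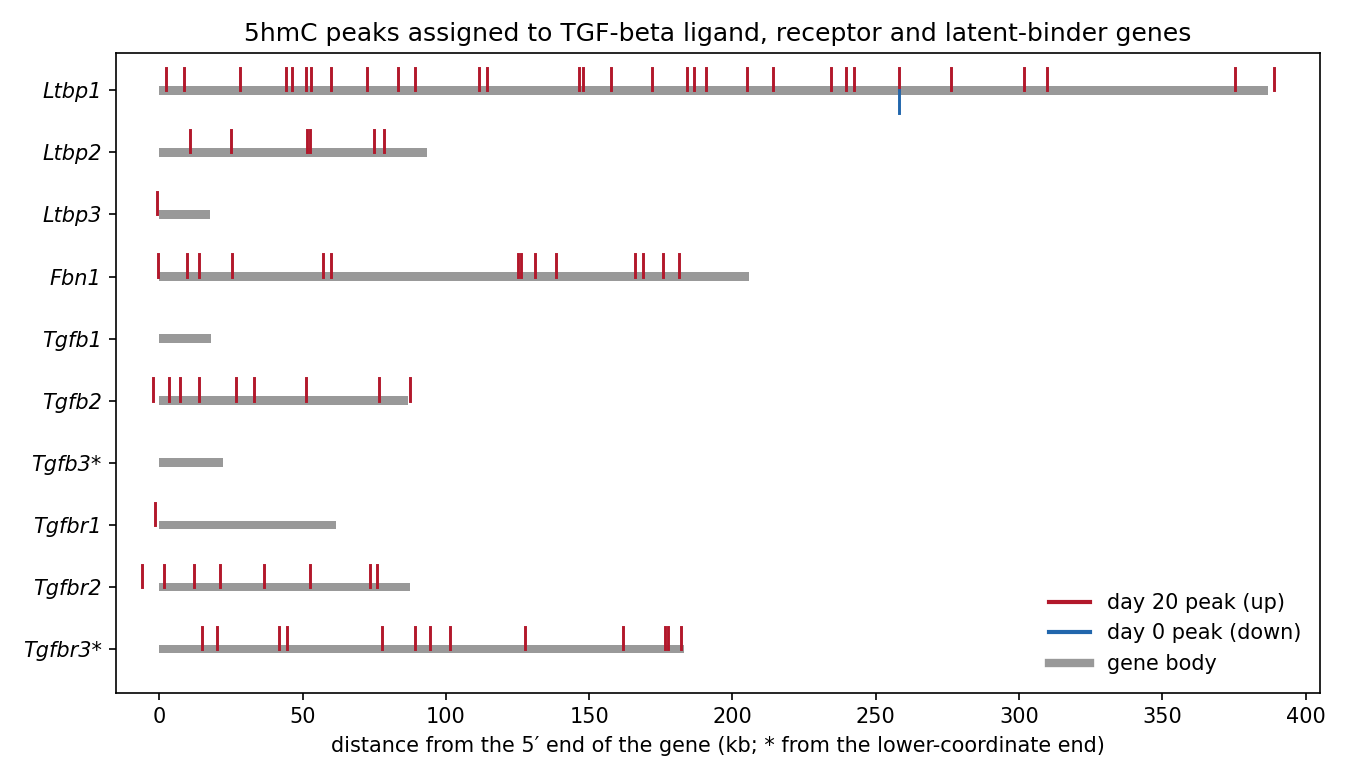
Position of every assigned peak along the 10 genes, in kb from the 5′ end of the gene (Tgfb3 and Tgfbr3 from the lower-coordinate end). Red ticks above the grey gene body are day 20 peaks and the blue tick below is the day 0 peak; Ltbp1 carries 31 day 20 peaks and the only day 0 peak, and Tgfb1 and Tgfb3 carry none.

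Promoter sequence was at hand for 8 of the 10 genes, in 10 windows of 300 bases reaching from 250 bases before to 50 after an annotated start (RefSeq, GRCm38.p6). Day 20 peaks touched 3 of these windows, those of Tgfb2, Ltbp3 and Fbn1, against 3.74% of 21263 such windows of protein-coding genes. The peak at Tgfb2 covered its whole window, that at Ltbp3 covered 45 of its 300 bases and that at Fbn1 covered 9. The 250 bases before the start are shown for these genes, together with those of Tgfb1, which had no peak, and of the upstream start of Tgfbr1, whose peak stopped short of the window. Capitals mark CpG dinucleotides, the main site of cytosine methylation and hydroxymethylation in mammalian DNA, and each sequence reads 5′ to 3′ towards the gene.
Tgfb2 (chr1:186705990-186706239, - strand): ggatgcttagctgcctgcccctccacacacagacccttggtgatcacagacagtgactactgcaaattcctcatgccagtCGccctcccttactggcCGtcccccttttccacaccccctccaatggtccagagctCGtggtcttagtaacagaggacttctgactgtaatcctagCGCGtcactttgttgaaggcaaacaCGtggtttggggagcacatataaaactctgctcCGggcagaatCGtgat
Ltbp3 (chr19:5740650-5740899, + strand): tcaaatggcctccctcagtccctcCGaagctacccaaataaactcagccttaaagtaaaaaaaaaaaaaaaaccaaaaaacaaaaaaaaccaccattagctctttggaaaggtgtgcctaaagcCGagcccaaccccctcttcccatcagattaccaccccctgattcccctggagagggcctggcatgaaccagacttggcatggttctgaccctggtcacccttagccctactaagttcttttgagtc
Fbn1 (chr2:125506439-125506688, - strand): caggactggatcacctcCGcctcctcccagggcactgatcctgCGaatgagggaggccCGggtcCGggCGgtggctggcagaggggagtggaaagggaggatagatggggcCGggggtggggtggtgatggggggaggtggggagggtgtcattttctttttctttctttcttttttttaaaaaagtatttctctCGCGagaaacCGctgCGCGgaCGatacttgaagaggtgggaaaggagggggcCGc
Tgfb1 (chr7:25686752-25687001, + strand): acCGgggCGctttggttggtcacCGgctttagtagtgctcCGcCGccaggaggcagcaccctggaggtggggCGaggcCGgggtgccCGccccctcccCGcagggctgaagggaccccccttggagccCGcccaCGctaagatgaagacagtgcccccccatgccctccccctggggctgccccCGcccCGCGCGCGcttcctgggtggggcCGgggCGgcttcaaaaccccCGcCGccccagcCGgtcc
Tgfbr1 (chr4:47352972-47353221, + strand): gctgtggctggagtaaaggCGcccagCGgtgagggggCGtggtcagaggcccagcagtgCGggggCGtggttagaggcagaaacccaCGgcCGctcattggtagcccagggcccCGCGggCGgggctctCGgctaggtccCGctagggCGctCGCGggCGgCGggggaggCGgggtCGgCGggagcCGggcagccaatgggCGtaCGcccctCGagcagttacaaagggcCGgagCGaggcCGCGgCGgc

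The windows differed in their number of CpG dinucleotides. The 300 bases held 10 CpG at Tgfb2, 3 at Ltbp3 and 14 at Fbn1, the windows touched by a day 20 peak. With 45 bases covered at Ltbp3 and 9 at Fbn1, the counts of these windows describe mostly bases outside the peaks. The 7 windows that were not touched held from 3 to 34, with 34 at the upstream and 3 at the downstream start of Tgfbr1, 30 at Tgfb1, 20 at Ltbp2, 17 and 7 at the upstream and downstream starts of Ltbp1, and 15 at Tgfbr2. The ranges of touched and untouched windows overlap. Among all windows of protein-coding genes, the 796 touched by a day 20 peak had a median of 8 CpG (quartiles 4 and 17) and the 20467 others a median of 13 (4 and 25). Windows with at least as many CpG as that of Tgfb1 made up 15.4% of all windows. GGGCGG, the letters of the GC box bound by Sp1 and related factors, was searched on both strands (CCGCCC on the other strand). Of the 3 touched windows it was found in 1, that of Fbn1 (1 time). Of the 7 others it was found in 3, those of Tgfb1 (6 times), Ltbp2 (2 times) and the upstream start of Tgfbr1 (2 times). It was present in 46.2% of all windows.

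Among the latent binders, Ltbp1, which ties the latent ligand to the matrix, held the most peaks. Its gene spans 387 kb on chromosome 17 (75005480 to 75392512), and its 31 day 20 peaks made up 37.3% of the peaks of the 10 genes. Only 35 of the 21900 protein-coding genes had more. Its density of 8.01 peaks per 100 kb compared with a median of 2.49 (quartiles 0.572 and 5.29) over the 2429 protein-coding genes of at least 100 kb, of which 223 were denser. Among those genes the nearest to it in density were Xylt1 (8.02 per 100 kb, 23 peaks), Galk2 (7.99, 10 peaks), Rai14 (7.98, 12 peaks), Rfx4 (7.97, 12 peaks) and Arhgap28 (8.05, 13 peaks). None of the 5 had a day 0 peak. All 5 lie in the longest length decile, where only 7.90% of genes had one.

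Ltbp1 is transcribed from a pair of separate starts that give a long and a short form of the protein, and its peaks lay on both sides of the downstream start. Between the starts, at 75005529 and 75178781, there were 17 day 20 peaks in 173 kb, or 9.81 per 100 kb. From the downstream start to the gene end there were 13 in 214 kb, or 6.08 per 100 kb. The authors' list gave the transcript accession NM_019919 to the 17 and NM_206958 to the 13 and to a further peak 1561 bp beyond the gene end. No peak covered either start: the nearest began 2069 bp downstream of the upstream start (75007598 to 75007870), and the nearest to the other ended 1115 bp upstream of it (75177143 to 75177666). Neighbouring peaks stood a median of 10.04 kb apart. The longest stretch without one was 65.1 kb, from 310 to 375 kb after the 5′ end, and 20 of the 30 peaks in the gene body lay before its midpoint.

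**Figure D2:**
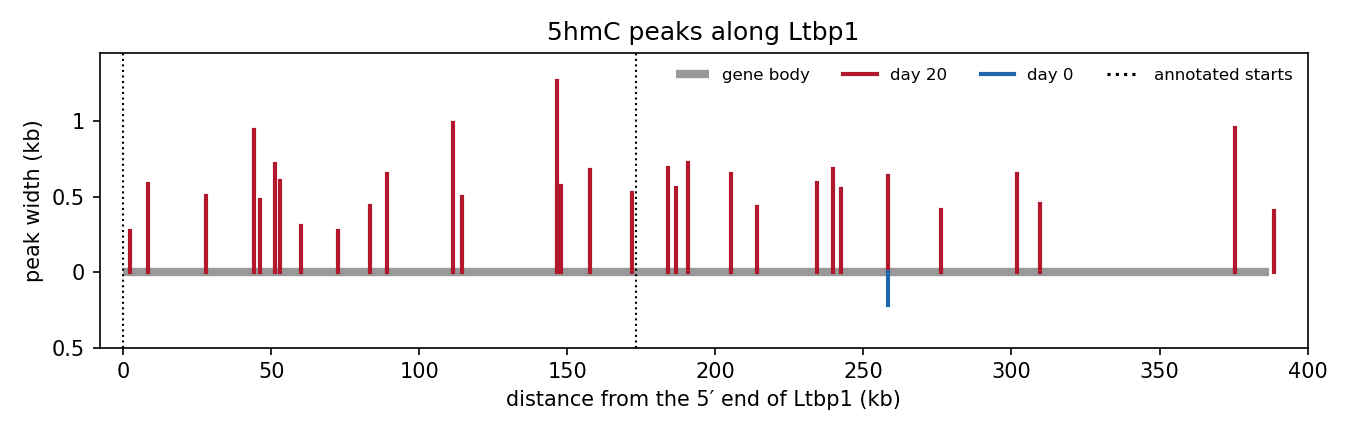
Peaks along Ltbp1 in kb from its 5′ end, with bar height giving peak width in kb (day 20 upwards, day 0 downwards) and dotted lines at the annotated starts. Of the 31 day 20 peaks, 17 lie between the starts, and the day 0 peak sits under a day 20 peak near 258 kb.

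The day 0 peak of Ltbp1 lay inside a day 20 peak. The day 20 peak spanned 639 bp (75263333 to 75263971) and the day 0 peak 221 bp (75263537 to 75263757), a ratio of 2.89 in width. The day 20 peak reached 204 bp further on one side and 214 bp on the other. The place is deep in the gene, 258 kb after its 5′ end. Thus 1 of the 83 day 20 peaks of the 10 genes was shared with day 0 (1.20%, Wilson 95% interval 0.213 to 6.51%), against 0.841% of all day 20 peaks. A day 0 peak was present in 7.90% of the genes in the longest decile, to which Ltbp1, Fbn1 and Tgfbr3 belong.

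Ltbp2, which sits on microfibrils and, unlike its relatives, does not bind latent TGF-beta, held 6 day 20 peaks in 93.3 kb on chromosome 12 (84783212 to 84876558). Of the genes in its length decile, 11.4% had more. Its peaks were wide, with a median of 1097 bp, and 4 of the 6 lay beyond the midpoint of the gene. One pair was separated by 6 bp only (84823280 to 84824424 and 84824431 to 84825291). The peak nearest to its start was also its widest, 1541 bp long and 9907 bp downstream of the start (84865044 to 84866584). Ltbp3, a binder of latent TGF-beta with a known role in skeletal growth, spans 17.6 kb of chromosome 19 (5740900 to 5758536). Its single day 20 peak of 1167 bp (5739528 to 5740694) ended 206 bp upstream of the start, and no peak lay in the gene body. Ltbp4, the remaining member of the family, had 1 day 20 peak in 34.6 kb. No day 0 peak was assigned to Ltbp2, Ltbp3 or Ltbp4.

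Fbn1 encodes fibrillin 1, the main protein of the microfibrils on which latent complexes are stored. It held 14 day 20 peaks in 206 kb on chromosome 2 (125300594 to 125506485), 6.80 per 100 kb, and no day 0 peak. One of them, 560 bp wide (125506680 to 125507239), lay 242 bp upstream of the start. The peaks fell in separate runs. The 5 peaks in the body nearest to the 5′ end lay within 59.9 kb of it. Next came 64.8 kb without one, from 60.3 to 125 kb after the 5′ end, and then 8 peaks reaching to 181 kb. Its relative Fbn2, of nearly the same length at 202 kb, held 6 day 20 peaks, or 2.97 per 100 kb. Both lie in the longest decile, where the median was 5 and 13.7% of genes had more than Fbn1.

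The ligand genes differed from one another. Tgfb2, the isoform with broad roles in skeletal development, held 9 day 20 peaks in 86.9 kb on chromosome 1 (186622787 to 186709697). At 10.4 per 100 kb it was the densest of the 10 genes, and 2.56% of the genes in its length decile had more peaks. That density includes 2 peaks outside the gene body. Counting only peaks in the body, Tgfb2 had 8.05 per 100 kb, close to Tgfbr2 with 7.98 and Ltbp1 with 7.75. One Tgfb2 peak (186705714 to 186706527, 814 bp) covered the start whose sequence is shown above. It was the only peak over an annotated start among the 8 genes with promoter sequence. That start is not the 5′ end of the gene body: the peak was centred 3.58 kb inside the gene. No peak covered the 5′ end itself. The widest peak of all 10 genes also lay in Tgfb2. It spanned 2564 bp (186694570 to 186697133), 13.8 kb after the 5′ end of the gene, and 110 peaks of the whole day 20 list, or 0.194%, were wider. A further Tgfb2 peak spanned 1634 bp (186657788 to 186659421), and another (186711517 to 186712273) lay 1820 bp upstream of the gene. One peak overlapped the small RNA gene Gm26169 and one the noncoding gene Gm35655, both inside Tgfb2.

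Tgfb1, the isoform abundant in bone matrix, and Tgfb3, known for its use in inducing chondrogenesis in culture, had no peak in either list by the authors' symbols or in their gene bodies. Both are short, with 18.1 kb on chromosome 7 (25687002 to 25705077) and 22.3 kb on chromosome 12 (86056743 to 86079041). Of the genes in their length decile, 44.1% had a day 20 peak, so a gene of this length without one was the more common case. The surroundings were not empty. A peak of 804 bp with no symbol (25707251 to 25708054) lay 2174 bp past the 3′ end of Tgfb1. The nearest upstream of its start was 10.2 kb away and was assigned to Tmem91. A peak of 465 bp (86054511 to 86054975) assigned to Ttll5 lay 1768 bp from the lower-coordinate end of Tgfb3, and on the other side the nearest was 25.2 kb away. Outside the gene body but within 50 kb of it lay 3 day 20 peaks for Tgfb1, 9 for Tgfb3 and 11 for Tgfb2. Of those at Tgfb2, 2 carried its own symbol. The same count was not made over all protein-coding genes.

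Among the receptors, Tgfbr3 and Tgfbr2 held many peaks and Tgfbr1 a single one. Tgfbr3 encodes betaglycan, the co-receptor that presents ligand, Tgfb2 in particular, to the type II receptor. It held 13 day 20 peaks in 183 kb on chromosome 5 (107106567 to 107289629), 7.10 per 100 kb, all inside the gene body. Its widest peak spanned 1646 bp (107195050 to 107196695). At the higher-coordinate end of the gene 3 peaks stood between 107282489 and 107288890, of which one pair was 84 bp apart (107282489 to 107283346 and 107283431 to 107284764). Tgfbr2, the type II kinase that binds ligand first, held 8 in 87.7 kb on chromosome 9 (116087695 to 116175363), 9.13 per 100 kb. Of the genes in its length decile, 4.89% had more. Its peak nearest to the start (116173381 to 116174202) lay 1161 bp downstream of it, and another (116181085 to 116181871) was 5722 bp upstream of the gene, the farthest from a gene body among the 83. Its widest peak, of 2045 bp, lay near the 3′ end (116098451 to 116100495).

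Tgfbr1, the type I kinase that phosphorylates Smad2 and Smad3, spans 61.7 kb of chromosome 4 (47353222 to 47414926). Its single day 20 peak of 633 bp (47351280 to 47351912) ended 1310 bp upstream of the gene, and the gene body held none. Of the genes in its length decile, 58.3% had more peaks and the median was 2. At 1.62 per 100 kb it had the lowest density of the 8 genes with a peak. The 3 receptors and the 3 ligands had no day 0 peak.

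**Figure D3:**
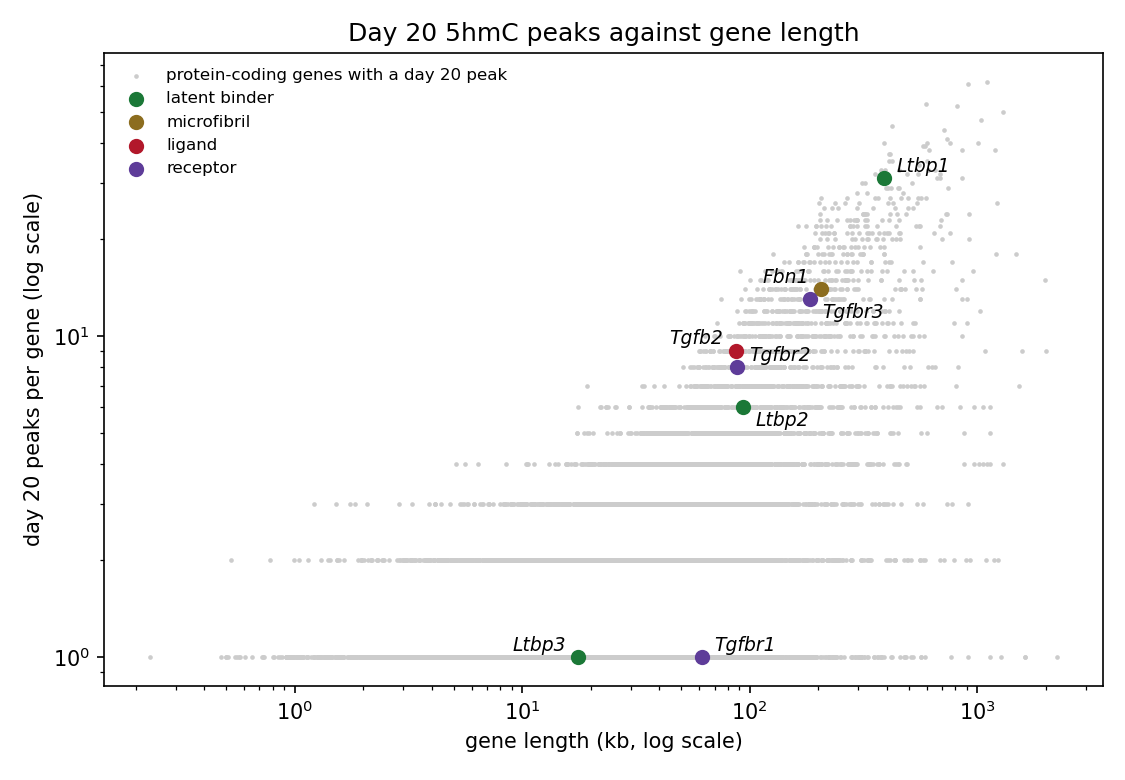
Day 20 peaks per gene against gene length in kb, both on log scales, for protein-coding genes with at least 1 day 20 peak (grey) and the 8 genes with a peak (coloured by role). Ltbp1, Ltbp2, Fbn1, Tgfbr3, Tgfb2 and Tgfbr2 lie in the upper part of the genes of their length, and Ltbp3 and Tgfbr1 lie at 1 peak.

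Across the 10 genes, 76 of the 83 day 20 peaks lay wholly inside the gene body and 7 outside it, between 195 and 5722 bp from its end. The same share over all day 20 peaks with a symbol was not computed, so this is not shown to be particular to the 10 genes. No day 20 peak in the body of any of the 10 genes had been given another symbol. Of the 70 peaks in genes whose strand was known, 3 lay within 1 kb of an annotated start. Of the 63 peaks inside Ltbp1, Ltbp2, Fbn1, Tgfb2 and Tgfbr2, 36 lay before the midpoint of the gene and 27 beyond it. Without Ltbp1, which had 20 before and 10 beyond it, the other 4 genes had 16 and 17. Neither the share near a start nor the split at the midpoint was computed over all genes, so neither is shown to be a trait of these genes.

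The day 20 peaks of the 10 genes had a median width of 680 bp (quartiles 532 and 941 bp), against 591 bp (458 and 783.5 bp) over the whole day 20 list. The 95% interval of the first median, from order statistics, was 604 to 787 bp. It treats neighbouring peaks as independent and measures no spread between replicates, so it is not a test of the difference in width. Peaks of 1 kb or wider made up 15 of 83 (18.1%), against 12.4% of the list. Among the 34181 day 20 peaks that carried a gene symbol, as all 83 do, the median was 601 bp and 13.6% were 1 kb or wider. By gene the medians were 586 bp in Ltbp1, 707 bp in Tgfbr3, 747.5 bp in Fbn1, 804 bp in Tgfb2, 804.5 bp in Tgfbr2 and 1097 bp in Ltbp2. Ltbp1 thus had the most peaks and, of these 6 genes, the narrowest. Per gene body, day 20 peaks covered 9.32% of Tgfb2, 7.04% of Tgfbr2, 6.60% of Ltbp2, 5.71% of Tgfbr3, 4.85% of Fbn1 and 4.71% of Ltbp1.

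**Figure D4:**
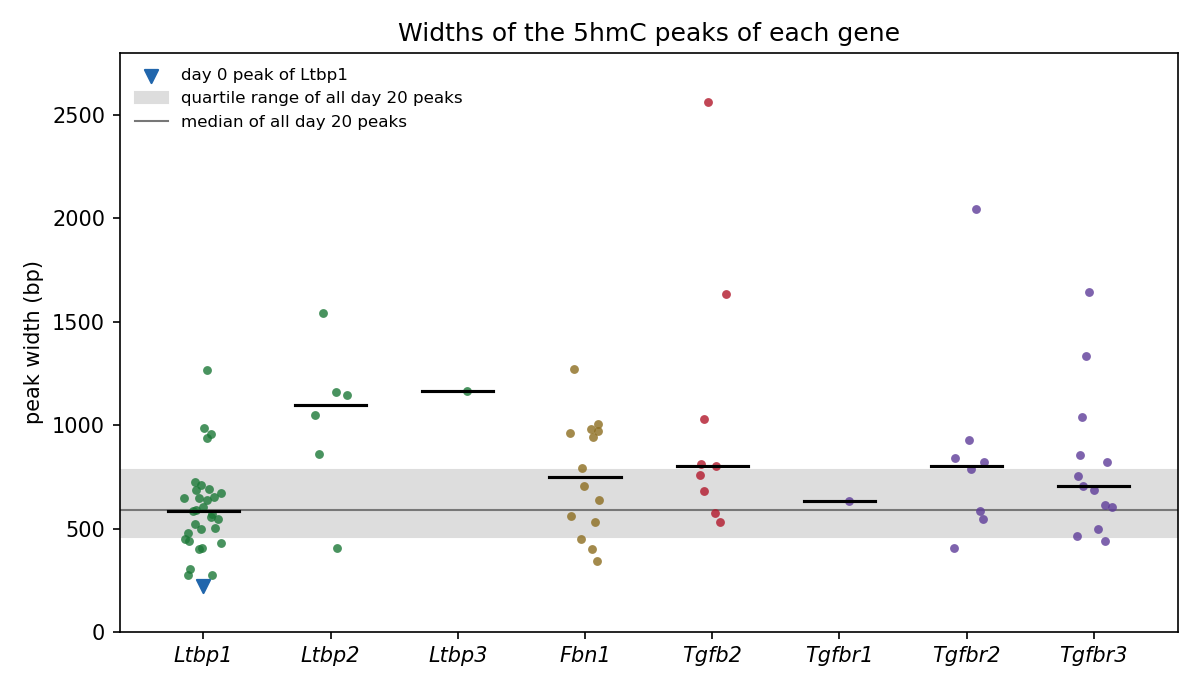
Width in bp of each peak by gene, with points for day 20 peaks, a black bar for the median of the gene and a blue triangle for the day 0 peak of Ltbp1. The grey line and band are the median (591 bp) and quartiles of the whole day 20 list; the widest points belong to Tgfb2 (2564 bp) and Tgfbr2 (2045 bp).

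A wider list of 50 other genes of the pathway, covering activators, matrix partners, co-receptors, Smads and their regulators, and targets, was set beside the 10. Of these, 41 (82.0%) had a day 20 peak and 2 had a day 0 peak, with a median of 2 day 20 peaks and a median length of 29.7 kb. Over all protein-coding genes, 43.9% had a day 20 peak and 1.81% a day 0 peak. In the length decile that holds 29.7 kb, the shares were 54.9% and 1.64%. The 50, like the 10, were chosen with earlier results of these data known, so their share does not stand for the pathway as a whole. The most peaks were in Smad3, the receptor-activated signal carrier, with 13, in Smurf1, a ubiquitin ligase that turns over Smads and receptors, with 11, and in the inhibitory Smad6 with 8. Fbn2 and Itgb6, the latter a subunit of an integrin that releases TGF-beta from its latent complex, had 6 each. Of the 10 genes 6 had 6 or more day 20 peaks, against 5 of the 50 and 6.48% of all protein-coding genes. That cut equals the lowest count among those 6 genes, so the contrast is descriptive only. The 10 genes were also longer than the 50, with a median of 87.3 kb against 29.7 kb. Whether length accounts for the contrast was not tested. The day 0 peaks of the 50 were in Mmp2, a gelatinase, and Adamtsl2, a microfibril-associated glycoprotein. The one in Mmp2, 116 bp wide, lay inside a day 20 peak of 882 bp, and the one in Adamtsl2, 143 bp wide, overlapped none. No day 20 peak was assigned to 9 genes, among them the co-receptor gene Eng, the integrin gene Itgb8 and the kinase gene Map3k7, named after their values were seen.

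**Figure D5:**
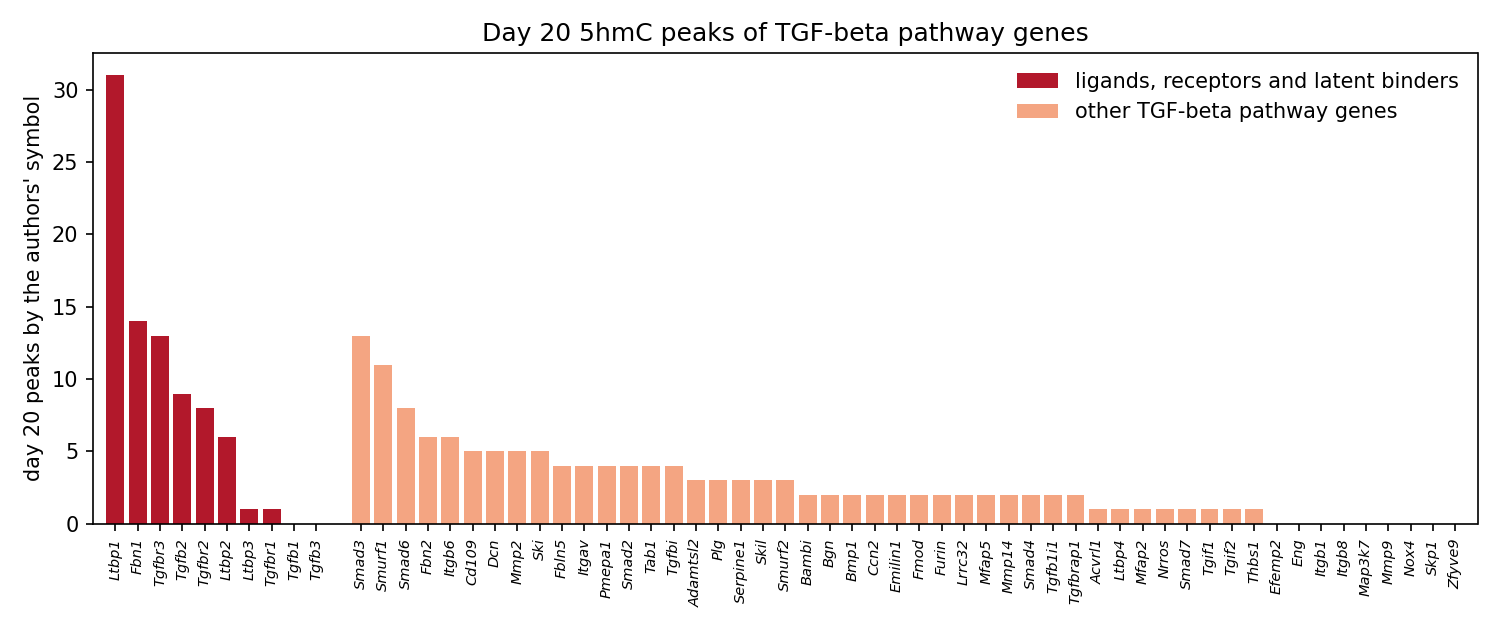
Day 20 peaks by the authors' symbol for the 10 genes (dark bars) and for 50 other genes of the TGF-beta pathway (light bars), each sorted by count. Ltbp1 with 31 peaks stands highest, and among the other genes Smad3 has the most with 13.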

How the data were processed

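The series holds 4 libraries of ATDC5 DNA in which 5hmC was captured with a commercial kit, per the labels. The submitters' processing notes name FastQC, cutadapt, BWA, MACS 1.4.2 and GRCm38 (mm10) without saying what each was used for. Per the file headers, libraries of a stage were merged and the list holds peaks enriched 10-fold. The headers and labels do not say if the day 19 library was among those merged for day 20. The deposited values are start and end positions in bp with a gene symbol and transcript accession, with no height, fold or p-value per peak. In the day 20 list 3 entries without a readable end were left out.

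Positions were read as 1-based, since the lowest start was 1. For the 10 genes, peaks were those with exactly that symbol. For all genes, peaks were matched to the RefSeq genes of GRCm38.p6 by accession, then symbol, then synonym, which placed 99.95% of day 20 and 98.9% of day 0 peaks with a symbol. Strand came from the RefSeq promoter table, which gave none for Tgfb3 and Tgfbr3. An overlap of 1 bp or more made a peak shared. No test was made, as there was 1 list per stage. The 10 genes and the list of 50 were chosen with earlier results of these data known. Genes named were all 10, the 5 of the 50 with the most day 20 peaks, those of the 50 with a day 0 peak, Ltbp4 and Fbn2, and the 5 genes of at least 100 kb nearest to Ltbp1 in density. Eng, Itgb8 and Map3k7, and the genes next to or inside members, were named after their values were seen. Intervals cover counting error only. Assignment and overlap steps were run on simulated peaks with symbols from the same annotation, which checks the code and not the authors' assignments. Alternatives covered gene assignment, merging, peak width and the overlap rule. Python 3.11.15, numpy 2.4.6, pandas 2.3.3 and matplotlib 3.10.9 were used.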

Additional observations from a re-analysis of the deposited data

How the results depend on the processing

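The 10 genes kept 6 to 10 members with a day 20 peak and 65 to 86 day 20 peaks under every alternative run, against 8 and 83 as reported. The 6 came from counting only peaks that overlap the gene body by at least 1 bp, which left Ltbp3 and Tgfbr1 with 0 each, and the 10 from adding 5 kb on both sides, which gave Tgfb1 and Tgfb3 1 each. The share of all protein-coding genes with a day 20 peak moved from the reported 43.9% to 40.5% by gene body, 50.8% with 5 kb added and 34.5% with only day 20 peaks of at least 500 bp. That last limit left 21 peaks in Ltbp1. The day 0 peak of Ltbp1 and its sharing with day 20 were the same under all alternatives run. None of these could have changed it, as the peak lies wholly inside a day 20 peak of 639 bp in the gene body. The median width ranged from 676.5 to 757 bp, and the other pathway genes with a day 20 peak from 39 to 44 of 50. Each stage is 1 merged list, so no replicate could be left out. No paired analysis was possible because each stage has 1 merged list and no test was made. Read depth was unknown and there was no value per peak, so peaks below the 10-fold limit at either stage cannot be seen here and a gene without a listed peak is not shown to lack 5hmC.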
